A study of Mus musculus with 3 samples.

Results

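The MYC network genes studied here are the 10 genes Myc, Mycn, Mycl, Max, Mxd1, Mxd3, Mxd4, Mxi1, Mnt and Mlx, chosen by gene symbol. All 10 had a row among the 17285 of the count table, and 9 of them had at least 1 count. The samples were of the mouse melanoma line B16, made stable for a vector without insert. They form a single group, Mock, of 3 samples (replicates 1, 2 and 3), with 9328096, 9456527 and 9438905 counts of RNA sequencing reads. Neither separate cultures nor the number of clones behind the line is stated in the labels. A p-value therefore covers the spread of these 3 samples alone, and that spread may be technical. The extraction text of the labels speaks of organs, while source and cell line are B16 melanoma. All 7 melanoma markers tested (Tyrp1, Dct, Pmel, Mlana, Gpnmb, Mitf and Sox10) were above 1 CPM (the unit CPM used throughout is reads scaled to library size). Mean levels of these 7 ran from 135 CPM for Mitf to 12337.4 CPM for Tyrp1. Of all genes with a count, 74.3% were above 1 CPM by edgeR and 20.2% below. Of 15 markers of leukocytes, endothelium, fibroblasts, epithelium and neurons, 0 were above 1 CPM by edgeR, with or without adjustment of p. Among them 3 were below 1 CPM and 12 had no count, and their summed level ranged over 0.212 to 0.636 CPM in the 3 libraries.

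MYC is a transcription factor of the basic helix-loop-helix leucine zipper class that drives ribosome production, metabolism and cell division. It binds DNA at E-box sites, whose canonical form is CACGTG, as a dimer with MAX. The MXD proteins, MXI1 and MNT compete for MAX and for the same sites and repress transcription by recruiting the SIN3 corepressor with its histone deacetylases. MLX is the partner of the glucose-sensing Mondo proteins and can also pair with MNT and some MXD proteins. In melanoma MYC is known as an oncogene that helps cells escape senescence.

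The CACGTG E-box was searched in promoter windows from RefSeq (GRCm38.p6), which run from 250 bases before to 50 bases after a gene's annotated start. The motif is its own reverse complement, so a match counts for both strands. Windows were listed for 9 of the 10 members, all but Myc. Of these 9 genes, 4 held the motif (44.4%), against 10.4% of the 13290 genes of the count table that have a window. The 4 were Max, Mlx, Mnt and Mxd4. The windows of Mycn, Mycl, Mxd1, Mxd3 and Mxi1 (which has 3 windows) held no CACGTG. The motif began 3 bases upstream of the RefSeq start in Max, where it spans that start, 40 in Mlx, 123 in Mnt and 219 in Mxd4. Gene coordinates given below are from GENCODE, whose starts can lie elsewhere. Such a match is a description of the letters, and no binding was measured. The 4 windows are shown because members of the network carry the network's own recognition site. The window of Cdk4, a cyclin-dependent kinase gene and textbook MYC target, is added because it held 4 matches. Each runs 5′ to 3′ along the strand of its gene, with CACGTG in capitals. The windows are chr12:76962199-76962498 (minus strand) for Max, chr11:101087040-101087339 (plus) for Mlx, chr11:74830674-74830973 (plus) for Mnt, chr5:34187661-34187960 (minus) for Mxd4 and chr10:127063285-127063584 (plus) for Cdk4.
Max: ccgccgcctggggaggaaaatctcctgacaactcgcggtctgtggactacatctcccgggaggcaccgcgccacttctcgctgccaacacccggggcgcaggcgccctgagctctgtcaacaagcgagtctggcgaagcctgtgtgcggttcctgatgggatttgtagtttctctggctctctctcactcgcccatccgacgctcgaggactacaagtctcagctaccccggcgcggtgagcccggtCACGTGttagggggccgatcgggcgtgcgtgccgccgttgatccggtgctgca
Mlx: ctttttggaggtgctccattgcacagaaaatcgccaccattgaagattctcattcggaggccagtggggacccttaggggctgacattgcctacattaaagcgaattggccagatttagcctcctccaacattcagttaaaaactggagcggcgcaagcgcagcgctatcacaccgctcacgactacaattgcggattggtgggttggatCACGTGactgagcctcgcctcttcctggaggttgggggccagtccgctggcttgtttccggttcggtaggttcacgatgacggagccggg
Mnt: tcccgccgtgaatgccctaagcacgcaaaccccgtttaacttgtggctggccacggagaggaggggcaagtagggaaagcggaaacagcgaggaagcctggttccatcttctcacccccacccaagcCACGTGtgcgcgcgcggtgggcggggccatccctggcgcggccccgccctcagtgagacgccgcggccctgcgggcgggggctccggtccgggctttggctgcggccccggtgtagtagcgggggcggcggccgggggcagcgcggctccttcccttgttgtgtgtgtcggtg
Mxd4: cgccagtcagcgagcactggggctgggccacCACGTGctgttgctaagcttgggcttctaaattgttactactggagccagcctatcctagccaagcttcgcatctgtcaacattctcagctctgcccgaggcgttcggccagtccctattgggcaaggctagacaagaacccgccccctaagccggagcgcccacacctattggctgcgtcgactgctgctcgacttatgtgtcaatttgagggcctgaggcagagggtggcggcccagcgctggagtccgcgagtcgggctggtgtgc
Cdk4: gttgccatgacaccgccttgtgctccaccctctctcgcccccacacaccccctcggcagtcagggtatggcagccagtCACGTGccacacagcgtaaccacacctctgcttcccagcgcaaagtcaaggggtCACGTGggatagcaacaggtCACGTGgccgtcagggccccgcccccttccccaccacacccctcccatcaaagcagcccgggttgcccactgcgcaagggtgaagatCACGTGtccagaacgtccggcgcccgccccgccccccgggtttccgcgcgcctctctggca

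Among the 3 MYC paralogs, Myc was transcribed at a high level and Mycn and Mycl were at or near the counting floor. Myc (chromosome 15, 61985391 to 61990374, plus strand, GRCm38) had 94.9, 99.1 and 114 CPM in replicates 1, 2 and 3, a mean of 103 ± 10.3 CPM (SD, n = 3). It lay higher in CPM than 86.3% of the genes of the table. Mycn, the paralog known from neuroblastoma (chromosome 12, 12936093 to 12941914, minus strand), had 3, 3 and 1 reads, or 0.248 ± 0.123 CPM. Its 7 reads in all give an exact 95% Poisson interval of 0.0997 to 0.511 CPM. Mycl, the paralog known from lung cancer (chromosome 4, 122995652 to 123002485, plus strand), had no read in any library. A count of 0 allows up to 0.106 CPM, taking the floor of 3 counts over the group. These intervals and floors cover counting error only.

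Set against 1 CPM, 8 of the 10 members were above, Mycn was below and Mycl could not be tested for want of counts. The test was edgeR's quasi-likelihood F statistic with Benjamini-Hochberg adjustment over the 14408 genes with a count, and an adjusted p under 0.05 was called. Of those genes 74.3% were called above and 20.2% below, so a level above 1 CPM was common in the table. The adjusted p was 6.96e-13 for Myc and 0.00321 for Mycn by edgeR. Among the 8 members above 1 CPM the largest adjusted p was that of Mxd4, 3.77e-08. The call of Mycn was lost with DESeq2's Wald test (adjusted p = 0.510), which called 0 genes below this level, with or without adjustment. It was also lost against a level of 0.5 CPM (edgeR adjusted p = 0.0923).

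**Figure D1:**
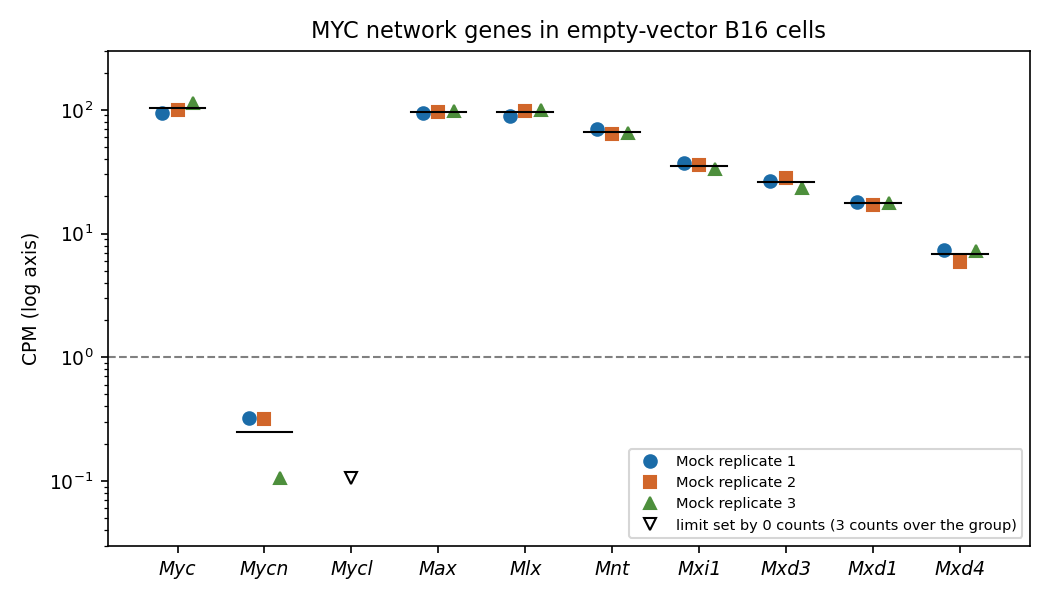
CPM of the 10 MYC network genes in Mock replicates 1, 2 and 3 (points, log axis), with the mean of the 3 libraries as a bar and 1 CPM as a dashed line. Myc, Max and Mlx lie near 100 CPM, the MXD genes, Mxi1 and Mnt between 6.84 and 66.4 CPM on average, and Mycn below 1 CPM, while Mycl has no count and is drawn at its limit of 0.106 CPM.

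The common partner genes Max and Mlx stood at nearly the same number of reads as Myc. Max (chromosome 12, 76937269 to 76962201, minus strand), which encodes the obligate partner of MYC, had 93.5, 95.4 and 97.2 CPM. Its mean of 95.3 ± 1.83 CPM had the smallest coefficient of variation of the members, 1.92%. Mlx (chromosome 11, 101087277 to 101092207, plus strand), the partner of the Mondo proteins, had 88.4, 98.5 and 99.1 CPM, a mean of 95.3 ± 6.02 CPM. Its annotated exons overlap those of the antisense gene Psmc3ip over 385 bases, 19.3% of the exon length of Mlx. Whether counting used strand is not given, so reads in that stretch cannot be assigned with certainty. Psmc3ip stood at 14.4 ± 1.22 CPM.

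All 5 genes of the repressive arm were transcribed, at graded levels. Mnt, whose protein is the widely expressed antagonist of MYC (chromosome 11, 74830920 to 74845725, plus strand), had 70.0, 64.2 and 65.1 CPM, a mean of 66.4 ± 3.09 CPM. Mxi1, a member of the MXD family (chromosome 19, 53310518 to 53375810, plus strand), had 36.9, 35.5 and 33.4 CPM, a mean of 35.3 ± 1.74 CPM. Mxd3, the family member known from proliferating cells (chromosome 13, 55325168 to 55329823, minus strand), had 26.7, 27.9 and 23.5 CPM, a mean of 26.0 ± 2.30 CPM. These 3 genes did not overlap one another in CPM, and how often other genes do not overlap was not computed.

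Mxd1, the founding member of the family, known from differentiating cells (chromosome 6, 86647042 to 86669161, minus strand), had 17.9, 17.1 and 17.6 CPM, a mean of 17.5 ± 0.446 CPM. Mxd4 (chromosome 5, 34173883 to 34187720, minus strand) had 7.37, 5.94 and 7.21 CPM, a mean of 6.84 ± 0.787 CPM. Mxd4 was the lowest of the repressive genes in every library, and Mnt the highest. Mxd3 alone among the members had fractional counts, and 3.99% of its 31-base words occur in transcripts of other genes, 75 words of them in the overlapping antisense gene Prelid1 (314 ± 12.1 CPM). The corresponding share was 17.1% for Mlx, 5.87% for Mxd4, 2.9% for Mxi1, 1.16% for Max and at most 0.273% for the others. Reads in such stretches may belong to either gene. The share of words does not bound the error of a level, which also depends on how abundant the other gene is.

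Levels of different genes were compared per kilobase of annotated exon (GENCODE M21, all exons of a gene merged). The log2 ratios tested below were taken within each library from counts plus 0.5. In CPM per kilobase, without that addition, Mlx led at 47.7 ± 3.01, followed by Myc at 37.8 ± 3.79 and Max at 26.5 ± 0.510. Mnt at 14.4 ± 0.669 and Mxd3 at 11.0 ± 0.969 CPM per kilobase were next. Mxi1 (5.17 ± 0.255), Mxd1 (2.48 ± 0.0630), Mxd4 (0.806 ± 0.0928) and Mycn (0.0753 ± 0.0374 CPM per kilobase) came after them. Mlx was higher per kilobase than 93.7% of the table's genes of known length, Myc than 91.6%, Max than 87.4% and Mxd4 than 39.9%.

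Relative to Max, 2 members were higher per kilobase and 6 lower by limma on the log2 ratios (adjusted p under 0.05 over 14096 genes). Of all genes tested 14.1% were higher than Max and 84.1% lower. The log2 ratio to Max was 0.85 ± 0.07 for Mlx (SD, n = 3, limma adjusted p = 3.25e-10) and 0.51 ± 0.12 for Myc (limma adjusted p = 2.48e-07), each higher in 3 of 3 libraries. Both directions rest on the length used. Per kilobase of the longest transcript the ratio was -0.16 for Myc (limma adjusted p = 0.0016) and -0.02 for Mlx (0.569). Per kilobase of coding sequence it was -1.40 for Myc and -0.90 for Mlx. The annotated exons of Max merge to 3598 bases, while its longest transcript has 1942 bases and its longest coding sequence 480, a wider gap than for Myc (2717, 2338 and 1362 bases). From reads alone Myc and Max differed little, with Myc higher by 0.10 on the log2 scale (limma adjusted p = 0.0063).

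The repressive genes and Mycn lay below Max whichever length was used. Per kilobase of merged exon the log2 ratio to Max was -0.88 ± 0.09 for Mnt, -1.27 ± 0.15 for Mxd3, -2.36 ± 0.10 for Mxi1, -3.41 ± 0.05 for Mxd1 and -5.03 ± 0.18 for Mxd4, with limma adjusted p values between 2.00e-11 and 2.65e-09. The sizes moved with the length used. Per kilobase of coding sequence the log2 ratio was -2.41 for Mnt, -2.24 for Mxd3, -2.32 for Mxi1, -2.94 for Mxd1 and -4.18 for Mxd4. With the longest transcript it was -1.76 for Mnt, -1.72 for Mxd3, -2.81 for Mxi1, -3.70 for Mxd1 and -5.05 for Mxd4. From reads alone it was -0.52 for Mnt, -1.88 for Mxd3, -1.43 for Mxi1, -2.44 for Mxd1 and -3.80 for Mxd4. Mxd4 was the lowest of the 5 under each. Mycn stood at -8.28 ± 0.73 per kilobase of merged exon, with -9.94 the lowest value under another length, and on the merged scale Mycl was at least 1007-fold lower than Max at the same group floor of 3 counts.

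**Figure D2:**
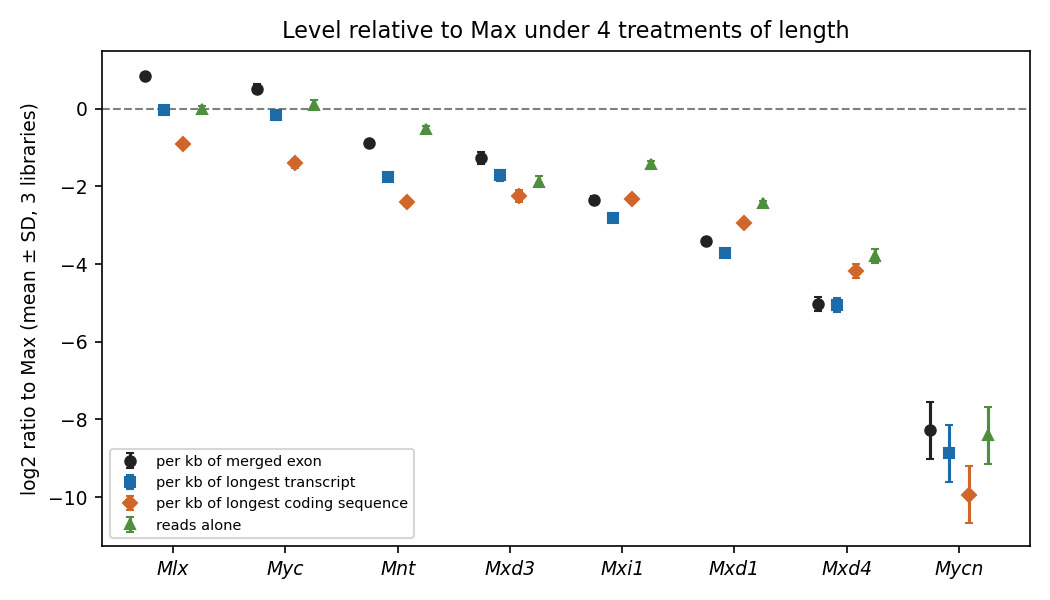
Log2 ratio to Max of 8 members within each library (mean ± SD, 3 libraries) per kilobase of merged exon, of the longest transcript and of the longest coding sequence, and from reads alone. Myc and Mlx change side of the dashed line at 0 with the length used, while Mnt, Mxd3, Mxi1, Mxd1, Mxd4 and Mycn stay below it under all 4 treatments.

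Neighbours in the order of level per kilobase all differed by limma: each of the 8 pairs was called, higher in 3 of 3 libraries, and no pair's ranges overlapped. The order was taken from these same values, which fixed the direction of each pair. A call was common, since 14.1% of all genes were called above Max and 84.1% below. How many gene pairs in general do not overlap was not computed. Mlx exceeded Myc by 0.34 ± 0.10 on the log2 scale (limma adjusted p = 5.33e-04; 8.5% of genes exceeded Myc). Max exceeded Mnt by 0.88 ± 0.09 (3.14e-14; 24.6% exceeded Mnt), and Mnt exceeded Mxd3 by 0.39 ± 0.14 (7.12e-05; 29.2% exceeded Mxd3). Mxd3 exceeded Mxi1 by 1.09 ± 0.08 (6.98e-26; 46.7% exceeded Mxi1). Mxi1 exceeded Mxd1 by 1.06 ± 0.07 (2.65e-08; 59.8% exceeded Mxd1). Mxd1 exceeded Mxd4 by 1.62 ± 0.14 (8.88e-23; 69.9% exceeded Mxd4), and Mxd4 exceeded Mycn by 3.25 ± 0.79 (1.10e-08; 79.5% exceeded Mycn). The limma fit shares variance over all genes, so its p depends on the gene divided by. With Max as that gene, the same contrast of Mnt and Max had a limma adjusted p of 2.65e-09. The order Mxi1, Mxd1, Mxd4 and Mycn held under every length. Without replicate 2 the pair Mlx and Myc was not called (limma adjusted p = 0.189), and without replicate 1 neither was the pair Mnt and Mxd3 (0.0757). Both pairs, and Mxd3 with Mxi1, lost their call or turned round under other lengths. Myc with Max was called in the reverse direction with the longest transcript (log2 ratio -0.16) and with coding length (-1.40).

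The transcripts of MAX partners were divided between the MYC genes and the repressors, in shares that moved with the length used. Per kilobase of merged exon, Myc, Mycn and Mycl held 49.9%, 51.8% and 56.7% of the partner transcripts in replicates 1, 2 and 3, a mean of 52.8 ± 3.51%. Almost all of it was Myc, at 52.7 ± 3.56%, with Mycn at 0.106 ± 0.0545%. The repressors held 47.2 ± 3.51%: Mnt had 20.0 ± 1.34%, Mxd3 15.3 ± 1.80%, Mxi1 7.22 ± 0.571%, Mxd1 3.46 ± 0.138% and Mxd4 1.12 ± 0.124%. Replicate 3 had the highest MYC share and replicate 1 the lowest. The share was 51.3% per kilobase of the longest transcript, 40.4% from reads alone and 32.6% per kilobase of coding sequence.

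Partner transcripts together exceeded those of Max 2.71 ± 0.0467-fold (SD, n = 3), with 2.70, 2.66 and 2.75 in the 3 libraries. The ratio was 1.75 with the longest transcript and 1.17 with coding length, so the excess itself held under all lengths while its size did not. Transcript levels do not give protein levels, and dimers were not measured.

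**Figure D3:**
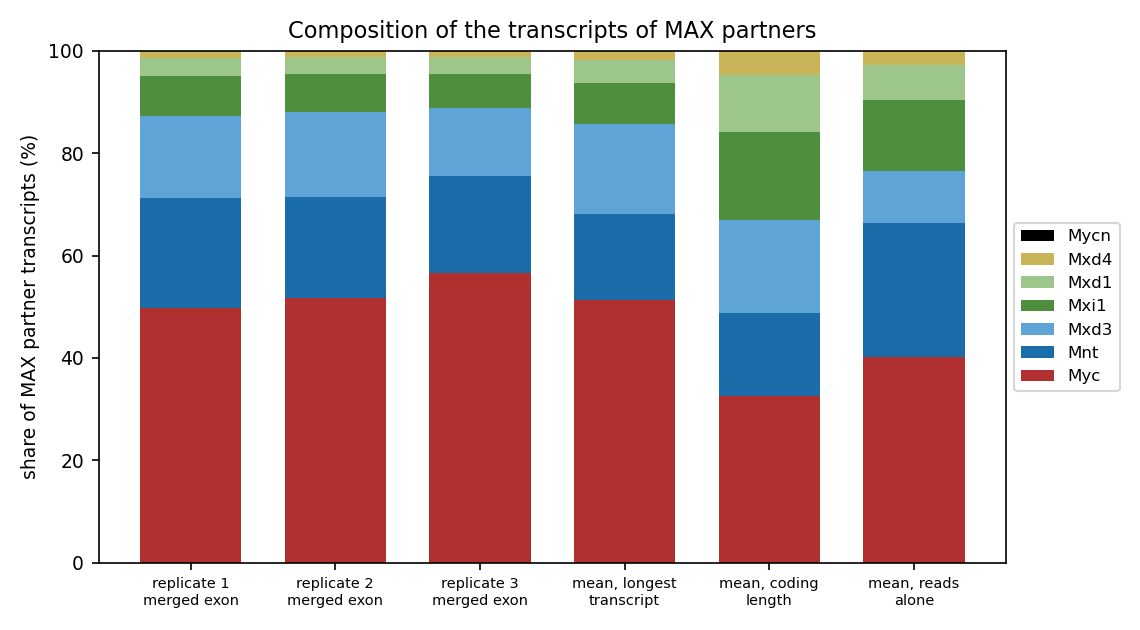
Share of each MAX partner gene among all partner transcripts, per kilobase of merged exon in Mock replicates 1, 2 and 3 and as the mean of the libraries under 3 other treatments of length. Myc takes 49.7% to 56.6% in the single libraries and 32.6% per kilobase of coding sequence, and Mnt, Mxd3 and Mxi1 make up most of the rest.

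Myc was the 1 member called as varying between the libraries. Its level of 94.9, 99.1 and 114 CPM spanned 1.21-fold, more than counting error allows by a Poisson deviance test (chi-square, adjusted p = 0.0045 over the 11000 genes averaging 10 counts or more). Of these genes 3.31% were called. Its log2 range of 0.27 was wider than that of 90.6% of the 8934 genes averaging 100 counts or more. Replicate 3 was the high one: without it the log2 range fell to 0.06 (adjusted p = 0.792), and without replicate 1 the call was also lost (0.078). None of the 7 other members tested was called. Mlx came nearest, with its low value in replicate 1 (unadjusted p = 0.0271, adjusted p = 0.249). The adjusted p was 0.521 for Mxd3, 0.643 for Mnt, 0.759 for Mxd4, 0.773 for Mxi1, 0.897 for Max and 0.964 for Mxd1. Mycn and Mycl had too few reads to test.

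**Figure D4:**
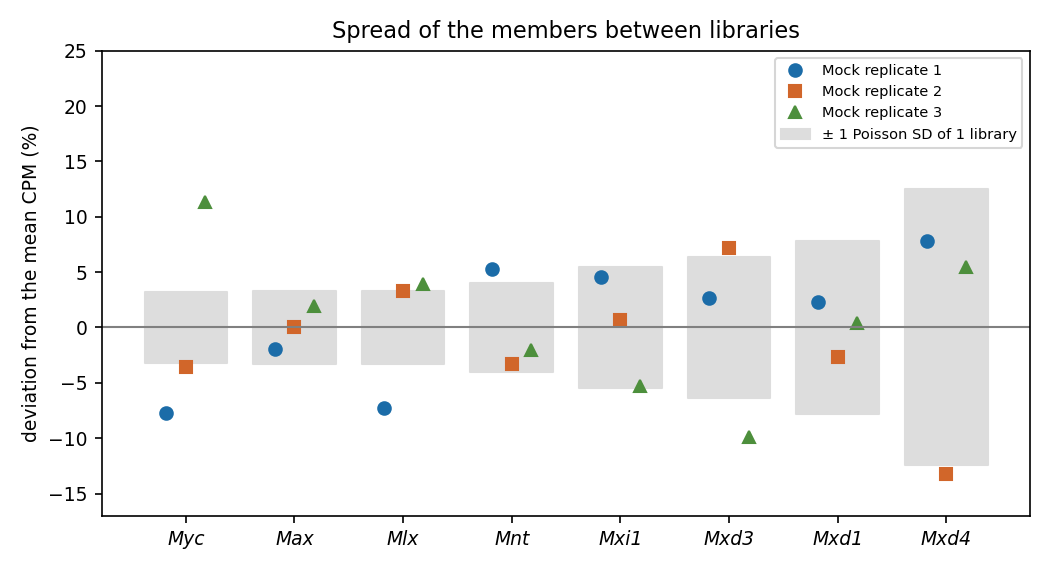
Deviation of each library's CPM from the member's mean, in percent, for the 8 members above 1 CPM. The grey band is 1 Poisson SD of a single library. Myc in replicate 3 lies far outside its band, while the points of Max and Mxd1 all lie within theirs.

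Of the other network proteins, Mga and Mlxip were transcribed. Mga, a MAX partner of a repressive chromatin complex, had 60.6, 56.5 and 48.9 CPM, a mean of 55.4 ± 5.93 CPM, and Mlxip (MondoA) 42.8 ± 0.709 CPM. Both were above 1 CPM by edgeR. Per kilobase they reached 3.61 ± 0.387 and 5.14 ± 0.0852 CPM, below Max by 2.88 and 2.36 on the log2 scale. With Mga among the partners the MYC share was 50.3%. Mlxipl (ChREBP), the other Mondo gene, had no row in the count table, so no level can be given for it. Of its promoter windows, 1 held a CACGTG, 98 bases upstream of the start. Of the Mondo targets, Txnip stood at 12.3 ± 1.67 CPM and Arrdc4 at 7.26 ± 1.28 CPM, 3.93 and 1.80 CPM per kilobase, and both were above 1 CPM. All genes with a count had a median of 4.92 CPM per kilobase.

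The listed genes of the machinery around the network were all above 1 CPM, as were 74.3% of all genes with a count. All 12 SIN3 corepressor genes were above 1 CPM, with a median of 12.0 CPM per kilobase. The most reads fell to the histone-binding protein gene Rbbp7 (406 ± 9.93 CPM), the corepressor gene Ncor1 (269 ± 5.48 CPM) and Rbbp4 (235 ± 11.3 CPM), the fewest to Sap30 (13.9 ± 1.49 CPM). All 15 MYC cofactor genes were above 1 CPM (median 16.6 CPM per kilobase), led by the acetyltransferase gene Kat2a (238 ± 5.58 CPM) and the nucleosome remodelling gene Bptf (233 ± 10.9 CPM). Ccnt1, the cyclin of the elongation kinase P-TEFb, had the fewest reads, 26.1 ± 2.71 CPM. All 15 genes of MYC protein turnover were above 1 CPM as well (median 17.8 CPM per kilobase). Among them the ubiquitin ligase gene Huwe1 had 557 ± 19.4 CPM, the phosphatase inhibitor gene Set 538 ± 1.06 CPM, the deubiquitinase gene Usp7 371 ± 14.9 CPM and the ligase gene Fbxo32 6.52 ± 0.879 CPM.

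All 30 listed genes that MYC is known to activate were above 1 CPM, against 74.3% of all genes with a count. Their median of 51.4 CPM per kilobase compares with 4.92 for all genes with a count. The most reads fell to the nucleolar chaperone gene Npm1 (1100.2 ± 22.8 CPM), the mitochondrial serine enzyme gene Shmt2 (838 ± 10.5 CPM) and the lactate dehydrogenase gene Ldha (799.9 ± 9.72 CPM). The cell cycle factor gene E2f2 had the fewest, 294, 286 and 296 reads. The summed level of the list was 9876.9, 9941.9 and 9969.4 CPM in replicates 1, 2 and 3. One gene of the 30 varied between libraries beyond counting error, the hexokinase gene Hk2 (chosen after its values were seen), with 158, 157 and 130 CPM (Poisson deviance adjusted p = 7.86e-06). With 3.31% of all genes tested called, 1 of 30 is a share near that background. Of the 25 activated targets with a promoter window 6 held CACGTG (24%), against 10.4% of the table's genes with a window. The share was 14.3% of 14 cofactor genes, 9.09% of 11 SIN3 genes, 7.69% of 13 turnover genes and 0 of 5 repressed targets. The Cdk4 window printed above was the one with 4 matches, at 172, 118, 98 and 11 bases upstream of the start. Cdk4 itself stood at 724 ± 12.3 CPM.

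Genes that MYC is known to repress lay on both sides of 1 CPM, as did all genes with a count (74.3% above, 20.2% below). Their median was 20.9 CPM per kilobase, with genes at 0 included. Of 6, the stress gene Ndrg1 (362 ± 6.85 CPM), the cell cycle inhibitor gene Cdkn1a (230 ± 4.52 CPM) and the growth arrest gene Gadd45a (73.7 ± 3.22 CPM) were above 1 CPM. Cdkn2b, an inhibitor of cyclin-dependent kinases, had 1 read in all and was below (edgeR adjusted p = 6.10e-04), a call lost with DESeq2's Wald test (0.141). Ndrg2 and Gas1 had no count. Without cells in which MYC differs, these levels say nothing of how either list responds to it. In bulk RNA, fewer expressing cells and less RNA per cell cannot be told apart.

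**Figure D5:**
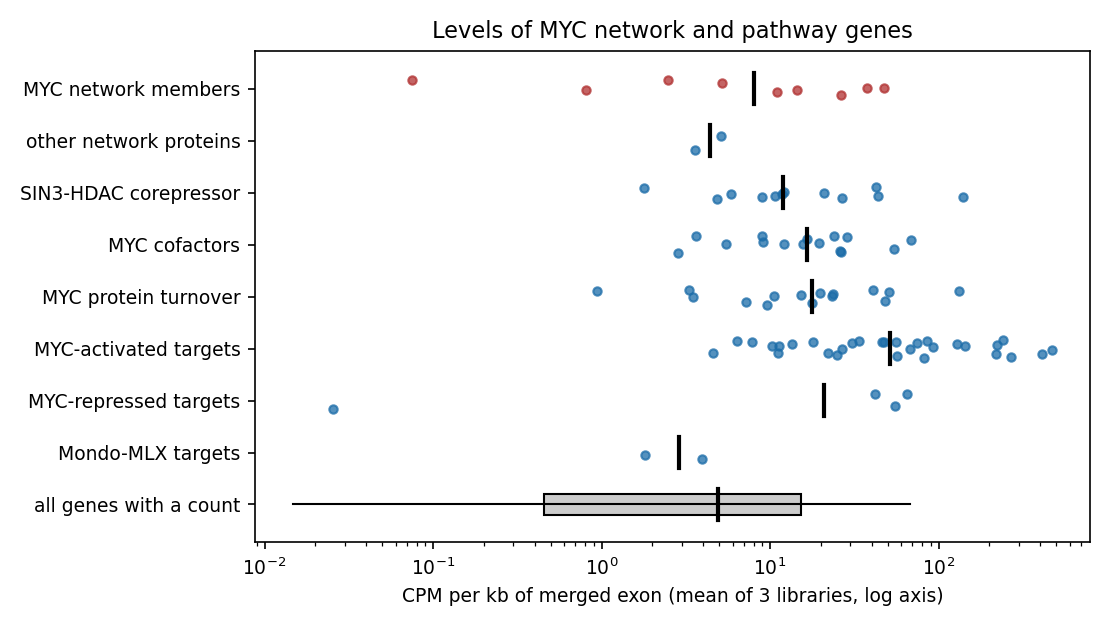
CPM per kilobase of merged exon (mean of 3 libraries, log axis) of the members and of the pathway lists, 1 point for each gene with a count, with list medians as black bars that include genes at 0. The bottom row gives the median, the middle range from percentile 25 to 75 (box) and percentiles 5 and 95 (line) of all genes with a count. The median of the activated targets, 51.4, lies above percentile 75 of all genes, 15.2. So do those of the repressed targets (20.9), protein turnover genes (17.8) and cofactors (16.6). The members with a count spread over 0.0753 to 47.7.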

How the data were processed

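RNA of 3 Mock samples was sequenced. The authors' deposited table gives estimated counts per gene symbol, 1 column per sample, not normalized. The submitters' processing notes name the build GRCm38.p6. For the aligner, counter, annotation and strand setting the sources used here give nothing. Fractional values (off by over 0.005) stood in 2270 of 17285 rows (13.1%). Counts were rounded for tests, and 2877 rows had no count. CPM used TMM-scaled totals, and at this depth 1 CPM equals 28.2 reads over the 3 libraries.

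Levels were tested against 1 CPM by the quasi-likelihood F test in edgeR 4.0.16 (R 4.3.3), with an intercept alone. Ratios went through limma 3.58.1 (trend on mean level), and variation with a Poisson deviance test (2 degrees of freedom). The Benjamini-Hochberg adjustment ran over all genes tested. Lengths came from GENCODE M21 (GRCm38), for the 16839 symbols with 1 gene there. Promoter sequences came from RefSeq. The tests of level, of the ratio to Max and of variation were also run on simulated counts, with outcomes not given here. DESeq2 1.42.0 and the other alternatives are given in the closing section. Plots used matplotlib 3.10.9.

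The members, lists and named genes were chosen with earlier results of these data known. Beside the members, named genes were the 3 with the highest mean CPM and the lowest in each list, those called below 1 CPM and those with no count, of which 1 gene is not reported here. Cdk4 and Hk2 were named after their values were seen. No gene was named for likeness to a member, since 3 libraries of 1 group show no pattern across conditions.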

Additional observations from a re-analysis of the deposited data

How the results depend on the processing

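The 8 members above 1 CPM were above it under every normalization, filter, level, tool and left-out replicate run. Mycn, the 1 member below, was not tested among genes with at least 10 counts, leaving 0 below, and 0 were called below against 0.5 CPM by edgeR or with DESeq2's Wald test, in each case 0 also at an unadjusted p under 0.05. Over all genes, 2907 were below 1 CPM, against 408 among genes with at least 10 counts and 0 with DESeq2, and 1835 to 2203 with a replicate left out.

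Length decided which members exceeded Max: 2 per kilobase of merged exon, 0 with the longest transcript and 0 with coding length by limma (none at an unadjusted p under 0.05 either), and 1 from reads alone. The log2 ratio to Max was -0.16 for Myc and -0.0195 for Mlx with the longest transcript, -1.40 and -0.90 with coding length, and -0.00252 for Mlx from reads alone. Pairs of neighbours called in the direction of the order numbered 8, against 5 with the longest transcript and 5 with coding length. Myc to Max was called in the reverse direction under both (limma adjusted p = 0.0016 and 3.34e-12). Mnt to Mxd3 turned to -0.0436 and -0.17 under these, and from reads alone Mlx to Myc was -0.11 and Mxd3 to Mxi1 -0.44. The MYC share of 52.8% became 32.6% with coding length and 40.4% from reads alone. The excess of partner transcripts over Max of 2.71 became 1.75, 1.17 and, with Mga, 2.84.

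Variation called 1 member, or 0 to 1 with a replicate left out (1 to 2 members at an unadjusted p under 0.05), and 364 genes in all, or 129 to 244. With 2 libraries fewer reads bear on each test. No paired analysis was possible because the samples form 1 group. Precision of Mycn and Mycl is limited by depth.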
